A study of Homo sapiens with 14 samples.

Results

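The genes described here are 38 members of the TGF-beta and activin signalling system and of the mesenchymal programme. They were found by gene name in a table of 56479 genes, and all 38 names were present. The members comprise 5 ligands, 6 proteins grouped under latency and activation, 3 receptors, 3 SMADs that carry the signal and 5 inhibitors and corepressors. The others are 3 follistatin family proteins, 2 proteins named for their induction by TGF-beta, 5 transcription factors of epithelial-mesenchymal transition (EMT) and 6 mesenchymal proteins. RNA had been sequenced from HepG2 and Hep3B, established lines from a human hepatoblastoma and a human hepatocellular carcinoma, both labelled wild type. The 14 libraries form 7 groups of 2. On culture dishes, HepG2 cells were kept for 5 days in isotonic medium or in medium with 4% polyethylene glycol (PEG), which raises osmolarity and compresses cells. On transwells, which are inserts with a porous membrane, HepG2 cells were left uncompressed or were compressed by a weight. Hep3B cells, all on transwells, were left uncompressed, compressed by a weight or given medium with 3% PEG. Neither how heavy the weight was nor how long transwell cultures lasted is stated in the labels. The libraries taken as uncompressed Hep3B carry the name control in the count table. The comparisons ask how these genes respond to osmotic and to mechanical compression.

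TGF-beta is secreted in a latent complex held in the matrix by latent TGF-beta binding proteins, and integrins, proteases or thrombospondin can free it. The free ligand brings together type I and type II receptor kinases, which phosphorylate SMAD2 and SMAD3. These join SMAD4 and enter the nucleus, where SKI, SKIL and TGIF1 restrain them and SMAD7 closes a negative feedback loop. Activins, dimers of inhibin beta subunits, use the same SMADs and are captured by follistatin. In liver, TGF-beta is known for slowing hepatocyte growth, activating stellate cells and, in tumour cells, driving EMT.

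Between 21.2 M and 35.4 M counts were available per library. Levels are CPM, counts per 1e6 of the scaled library size, and changes are log2 fold changes ± standard error (SE). A gene is said to have risen or fallen at an adjusted p under 0.05. RB1, known to be lost in Hep3B, checked the line labels: without compression, the mean of RB1 was 127 CPM in HepG2 and 2.68 CPM in Hep3B. Dish replicates differed more than transwell replicates, with a biological coefficient of variation of 0.309 and 0.279 for the dish pairs and 0.0457 to 0.07 for the transwell pairs. The surfaces were therefore fitted apart, and no test was made across them. On data simulated with 200 changed genes and independent replicates, the dish fit recovered 9% of 2-fold changes and the transwell fit 88%. A gene that missed the threshold on dishes may therefore still have changed. In the real dish comparison 3758 genes passed, so the share recovered there need not be 9%. The labels call the dish libraries biological replicates and do not say so of the transwell libraries, so p-values there measure only the spread between labelled replicates.

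Of the 38 members, 35 had enough counts for a test on transwells and 31 on dishes. A member that passed this filter only through a group where it is high had to differ, so counts of members are a description. ZEB2 on both surfaces and PMEPA1 on transwells passed it only through a compressed HepG2 group, and their calls are in the counts. In HepG2 under the weight, 19 of 35 members rose and 4 fell, together 65.7%, where 39.3% of all 18082 genes tested passed (17.9% up and 21.4% down). The median log2 fold change of the members was 0.41, against 0 for all genes tested. In Hep3B the weight raised 8 and lowered 6 of 35 members, or 40%, with 16.2% of all genes passing (7.28% up and 8.88% down), and the medians were 0.16 and -0.02. In 3% PEG, 10 members rose and 9 fell, or 54.3%, a share close to the 52.7% of all genes (25.1% up and 27.6% down), with medians of 0.06 and -0.02. In 4% PEG, 3 members rose and 4 fell of 31, or 22.6%, again close to the 21.7% of all 17283 genes tested (11.6% up and 10.2% down), with medians of -0.03 and 0.01. The 4% PEG count depended on the settings. It was 12 with no filter, 11 in DESeq2, 17 with all 14 libraries in 1 fit and 22 with a block for replicate number. Replicate differences correlated at 0.764 between the dish groups, but the labels do not say that a replicate number is shared. With library totals as the only scaling, the split became 6 up and 3 down. Counting only changes of at least 1 on the log2 scale, 10 members rose and 1 fell in HepG2 under the weight, where 6.33% and 1.63% of all genes did so. The same count was 2 up and 0 down in Hep3B under the weight (2.05% and 0.348% of all genes), 3 up and 4 down in 3% PEG (7.17% and 7.73%) and 3 up and 4 down in 4% PEG (11.2% and 9.77%). In these bulk libraries fewer cells of a type and less RNA per cell cannot be told apart.

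**Figure D1:**
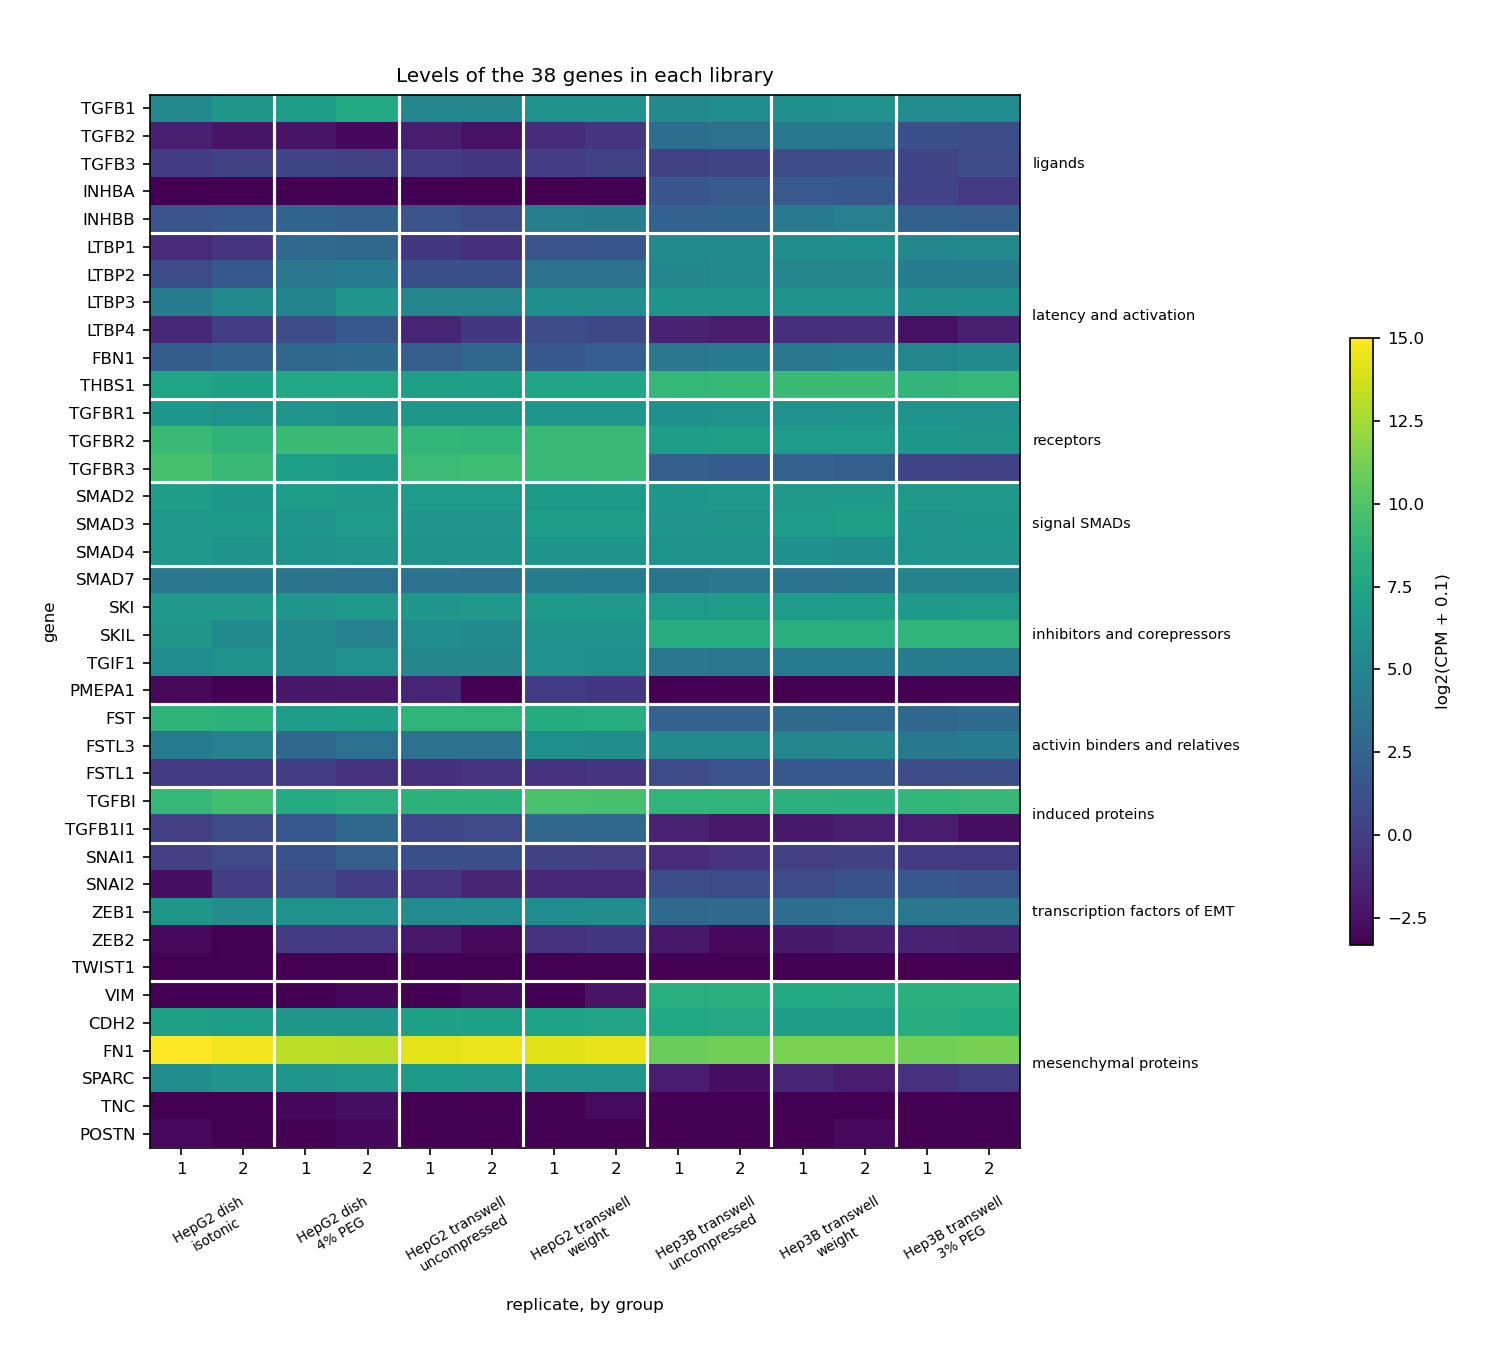
Levels of the 38 genes in the 14 libraries, as log2(CPM + 0.1) in colour, with genes in rows by role and replicates in columns by group. FN1 is the brightest row, VIM and INHBA are near or at 0 in HepG2, and TWIST1, TNC and POSTN are near or at 0 throughout.

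The weight raised 6 members in both lines: TGFB1, TGFB2, INHBB, LTBP1, THBS1 and SMAD3. They were 31.6% of the members that rose in HepG2 and 75% of those that rose in Hep3B. Over all genes tested, 615 rose in both lines, or 19% of the rises in HepG2 and 46.7% of those in Hep3B. No member fell in both lines, while 772 of all genes did. The promoters of 3 of the 6 are shown because these genes moved together. Each is the 250 bases before a RefSeq start (GRCh38.p14, plus strand, 5′ to 3′, overlapping no annotated exon), and capitals mark a match to the TEAD motif GGAATG. The windows are INHBB at chr2:120345886-120346135, THBS1 at chr15:39580829-39581078 and SMAD3 at chr15:67065352-67065601.
INHBB: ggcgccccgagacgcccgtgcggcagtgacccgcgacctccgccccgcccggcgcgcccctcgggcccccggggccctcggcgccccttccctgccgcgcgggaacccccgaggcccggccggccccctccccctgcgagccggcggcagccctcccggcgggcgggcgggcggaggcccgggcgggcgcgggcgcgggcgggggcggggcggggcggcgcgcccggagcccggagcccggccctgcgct
THBS1: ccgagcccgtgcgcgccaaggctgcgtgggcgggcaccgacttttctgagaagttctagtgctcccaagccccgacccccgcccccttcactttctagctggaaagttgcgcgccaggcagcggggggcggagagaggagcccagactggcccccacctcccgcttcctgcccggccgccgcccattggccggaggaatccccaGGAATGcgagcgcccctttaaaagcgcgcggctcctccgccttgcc
SMAD3: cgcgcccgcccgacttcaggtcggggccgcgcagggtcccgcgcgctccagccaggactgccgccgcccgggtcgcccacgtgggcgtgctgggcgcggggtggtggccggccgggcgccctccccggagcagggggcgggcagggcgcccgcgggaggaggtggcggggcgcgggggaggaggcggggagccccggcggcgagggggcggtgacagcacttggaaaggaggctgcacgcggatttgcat
The motifs searched on both strands were the SMAD palindrome GTCTAGAC, the AP-1 site TGANTCA and GGAATG, the motif of TEAD factors. Each motif was counted on its own, and AP-1 and TEAD matches can share end bases. RefSeq windows were found for 34 of the 38 members, 72 windows in all. The SMAD palindrome was in none of them and in 0.182% of all 35116 windows. AP-1 letters were in 5 member windows, each of a different member, and in 6.57% of all windows. TEAD letters were in 8 member windows of 7 members and in 11.9% of all windows. Among the 6 genes that rose in both lines, TEAD letters were found in TGFB2 and THBS1 and AP-1 letters in 1 window of SMAD3. A match describes letters in a window and is neither a site nor a cause.

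Among the ligands, INHBB, which encodes the subunit of activin B, had the largest rise of any member under the weight in both lines. INHBB (chromosome 2, 120346143 to 120351808 in GENCODE 29 on GRCh38) stood at 2.45 and 1.82 CPM in uncompressed HepG2 and at 23.3 and 21.3 CPM under the weight, a change of 3.39 ± 0.16 (adjusted p = 1.29e-15). In Hep3B it stood at 5.45 and 6.03 CPM uncompressed and at 19.6 and 25.8 CPM under the weight, a change of 1.98 ± 0.13 (adjusted p = 6.5e-12). The weighted libraries lay well above the uncompressed ones in both lines and reached similar levels. In 3% PEG the gene stayed near its control, at 5.07 and 4.62 CPM (adjusted p = 0.2). On dishes it stood at 2.68 and 3.24 CPM in isotonic medium and 6.00 and 4.96 CPM in 4% PEG, and the difference of 0.89 ± 0.40 missed the threshold (adjusted p = 0.155). The weight effect was smaller in Hep3B, with a log2 difference of -1.41 ± 0.22 (adjusted p = 2.18e-05).

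TGFB1, the main TGF-beta isoform of most tissues (chromosome 19, 41301587 to 41353911), rose less. It went from 36.4 and 36.1 CPM to 63.8 and 65.7 CPM in HepG2 under the weight (0.84 ± 0.07, adjusted p = 3.94e-11). In Hep3B it went from 44.1 and 48.8 CPM to 59.9 and 62.6 CPM (0.40 ± 0.07, adjusted p = 6.54e-05), and the groups did not overlap in either line. In 3% PEG it was at 45.2 and 49.4 CPM, within the range of its control (adjusted p = 0.783). On dishes it stood at 40.1 and 83.8 CPM in isotonic medium and 116 and 232 CPM in 4% PEG. Both PEG libraries were above both isotonic ones, but the difference of 1.49 ± 0.46 did not pass (adjusted p = 0.061).

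TGFB2, a second TGF-beta isoform (chromosome 1, 218346235 to 218444619), was the ligand that moved in opposite directions under the Hep3B treatments. It stood at 9.98 and 10.6 CPM uncompressed, 16.9 and 17.2 CPM under the weight and 2.17 and 1.98 CPM in 3% PEG. The rise was 0.73 ± 0.12 (adjusted p = 5.59e-05) and the fall was -2.31 ± 0.16 (adjusted p = 1.89e-13). The treatments themselves differed by 3.04 ± 0.15 (adjusted p = 1.12e-16). In HepG2 the gene was scarce, with 4 and 2 counts (0.178 and 0.0827 CPM) uncompressed and 10 and 14 counts (0.415 and 0.653 CPM) under the weight. That rise of 1.99 ± 0.55 (adjusted p = 0.0043) was lost without uncompressed replicate 2 (adjusted p = 0.0768) or weight replicate 2 (adjusted p = 0.0617). On dishes it was too scarce to test, at 0.0340 to 0.212 CPM.

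INHBA, the subunit of activin A (chromosome 7, 41667168 to 41705834), had no count in any of the 8 HepG2 libraries, which allows a level of up to 0.0148 CPM. In Hep3B it stood at 2.83 and 3.72 CPM uncompressed, 3.38 and 3.19 CPM under the weight and 1.17 and 0.776 CPM in 3% PEG. The 3% PEG libraries were the low ones (-1.76 ± 0.27, adjusted p = 2.58e-06), and the weighted ones lay within the control range. TGFB3, the remaining isoform, was between 0.703 and 1.91 CPM in all 14 libraries and passed in no compression comparison. In 3% PEG, then, 2 of 5 ligands fell, where 27.6% of all genes did, and none rose.

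The genes of the latent TGF-beta binding protein family rose in HepG2 under the weight, 4 of 4, where 17.9% of all genes rose. LTBP1 (chromosome 2, 32946972 to 33399509) stood at 0.669 and 0.496 CPM uncompressed and 2.78 and 2.94 CPM under the weight (2.29 ± 0.24, adjusted p = 4.66e-09). In 4% PEG it stood at 7.71 and 6.83 CPM against 0.389 and 0.610 CPM in isotonic medium (3.87 ± 0.48, adjusted p = 0.00337). It was low in every control library and higher in every compressed library of HepG2. In Hep3B it was far higher from the start, at 41.7 and 44.9 CPM, and reached 55.9 and 57.5 CPM under the weight (0.39 ± 0.07, adjusted p = 0.000201). In 3% PEG it was at 36.1 and 39.6 CPM, a small fall of -0.19 ± 0.07 (adjusted p = 0.0272). That fall was lost with library totals as the only scaling (adjusted p = 0.216), in DESeq2 (adjusted p = 0.141), without uncompressed replicate 2 (adjusted p = 0.247) and without 3% PEG replicate 1 (adjusted p = 0.247).

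LTBP2, a relative that binds fibrillin (chromosome 14, 74498170 to 74612378), followed the same order in HepG2. It stood at 2.10 and 2.15 CPM uncompressed and 11.2 and 11.6 CPM under the weight (2.42 ± 0.14, adjusted p = 1.56e-14). On dishes it stood at 1.80 and 3.14 CPM in isotonic medium and 15.5 and 19.4 CPM in 4% PEG (2.82 ± 0.44, adjusted p = 0.0069). The compressed libraries were above all HepG2 controls on either surface. In Hep3B the levels were 34.8 and 39.7 CPM uncompressed, 35.0 and 31.9 CPM under the weight (adjusted p = 0.21) and 21.1 and 20.5 CPM in 3% PEG (-0.84 ± 0.08, adjusted p = 4.64e-10). The weight effects of the lines differed by -2.57 ± 0.17 (adjusted p = 5.44e-13).

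LTBP3, needed for secretion of the latent complex, rose in HepG2 under the weight (0.71 ± 0.07, adjusted p = 7.4e-10) and fell in Hep3B in 3% PEG (-0.44 ± 0.06, adjusted p = 7.94e-07). LTBP4 (chromosome 19, 40592883 to 40629818) was scarce, at 0.267 and 0.703 CPM in uncompressed HepG2 and 1.95 and 1.49 CPM under the weight (1.80 ± 0.40, adjusted p = 0.000555). Its dish libraries stood at 0.318 and 0.938 CPM in isotonic medium and 1.94 and 3.26 CPM in 4% PEG, a difference that just missed the threshold (2.07 ± 0.63, adjusted p = 0.0563). Compressed HepG2 libraries were the high ones on both surfaces. On dishes LTBP4 passed the filter only through the 4% PEG libraries, so that order is a description. In Hep3B it was at 0.0805 to 0.478 CPM and passed in neither comparison.

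FBN1, fibrillin 1, forms the microfibrils on which latent complexes are deposited (chromosome 15, 48408306 to 48645849). It was the member of this role that rose in 3% PEG, from 15.4 and 19.8 CPM to 34.7 and 41.7 CPM (1.12 ± 0.18, adjusted p = 0.0012). Under the weight Hep3B stood at 16.5 and 19.5 CPM, within its control range (adjusted p = 0.956). In HepG2 the gene ran from 3.15 to 8.57 CPM and passed in neither comparison. THBS1, thrombospondin 1, an activator of latent TGF-beta (chromosome 15, 39581079 to 39599466), rose slightly under the weight in both lines. It went from 137 and 131 CPM to 179 and 177 CPM in HepG2 (0.41 ± 0.06, adjusted p = 6.02e-07) and from 471 and 493 CPM to 594 and 591 CPM in Hep3B (0.30 ± 0.05, adjusted p = 0.00019). The interaction of THBS1 did not pass (adjusted p = 0.364).

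**Figure D2:**
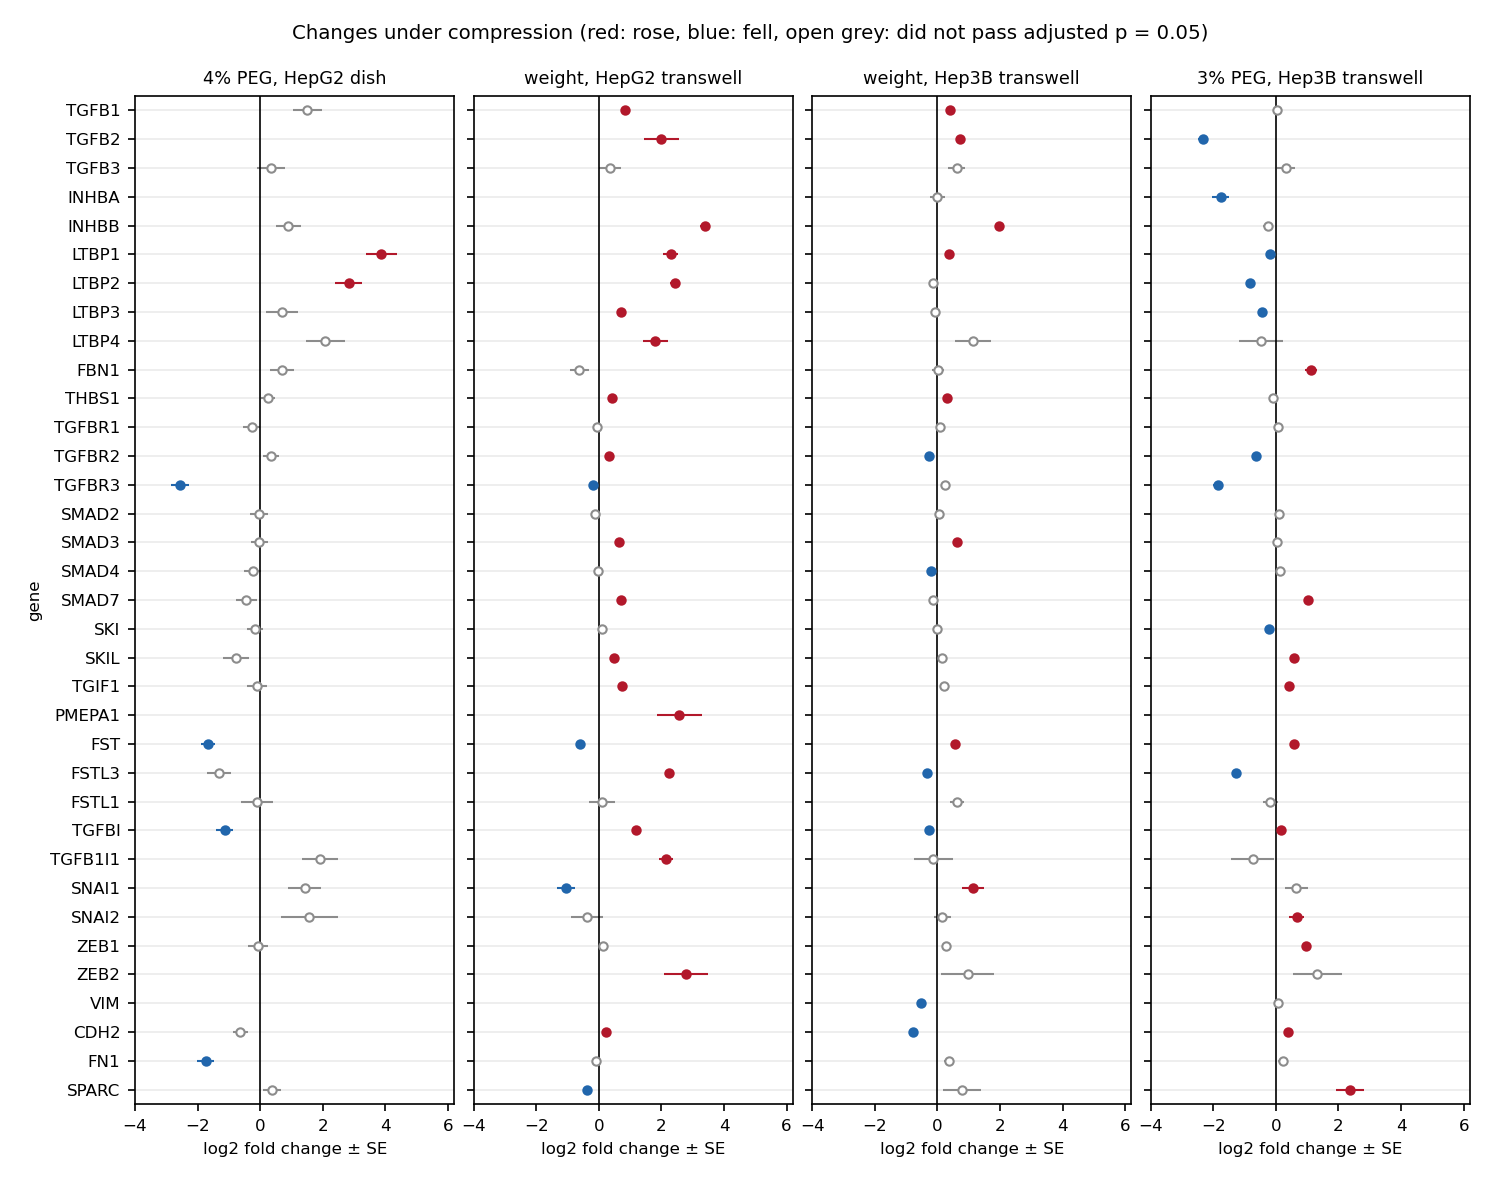
Log2 fold change ± SE of each tested member in the 4 compression comparisons, with red points for genes that rose, blue for genes that fell and open grey for genes that did not pass. No point is drawn where a compared group held 3 counts or fewer. Red points are most frequent for HepG2 under the weight, with 19 rises and 4 falls.

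Of the 3 receptors, the coreceptor TGFBR3 had the largest changes, and both were falls in PEG. TGFBR3, betaglycan, presents ligand to the type II receptor and also serves inhibins (chromosome 1, 91680343 to 91906335). It stood at 833 and 586 CPM in isotonic medium and 134 and 105 CPM in 4% PEG, a fall of -2.57 ± 0.29 (adjusted p = 0.00277). In Hep3B it was low from the start, at 4.54 and 3.89 CPM, and stood at 1.25 and 1.09 CPM in 3% PEG (-1.85 ± 0.14, adjusted p = 2.06e-12). Both PEG groups lay well below their controls in both lines. Under the weight it was at 534 and 577 CPM in HepG2 against 621 and 644 CPM uncompressed (-0.19 ± 0.06, adjusted p = 0.0123), and at 5.38 and 4.54 CPM in Hep3B (adjusted p = 0.219). The small fall in HepG2 was lost with RLE size factors (adjusted p = 0.0617), in DESeq2 (adjusted p = 0.0786), without uncompressed replicate 2 (adjusted p = 0.119) and without weight replicate 1 (adjusted p = 0.166). The weight and 3% PEG differed directly in Hep3B by 2.08 ± 0.14 (adjusted p = 1.02e-13).

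TGFBR2, the type II receptor, rose in HepG2 under the weight, from 452 and 442 CPM to 557 and 561 CPM (0.32 ± 0.05, adjusted p = 1.43e-05). In Hep3B it fell, from 127 and 138 CPM to 113 and 109 CPM under the weight (-0.26 ± 0.06, adjusted p = 0.00122) and to 86.7 and 84.7 CPM in 3% PEG (-0.63 ± 0.06, adjusted p = 5.12e-11). The fall under the weight was lost without uncompressed replicate 2 (adjusted p = 0.0765). The difference between the lines in the weight effect was -0.58 ± 0.08 (adjusted p = 9.61e-07). TGFBR1, the type I receptor kinase, was between 57.9 and 90.1 CPM in all 14 libraries and passed in no compression comparison.

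Of the SMADs that carry the signal, SMAD3 alone passed under the weight in both lines, and by almost the same amount. It went from 77.0 and 77.1 CPM to 119 and 124 CPM in HepG2 (0.65 ± 0.07, adjusted p = 1.59e-07) and from 77.5 and 81.8 CPM to 113 and 135 CPM in Hep3B (0.64 ± 0.07, adjusted p = 8.65e-07). The weighted libraries did not overlap the uncompressed ones. In 3% PEG it stood at 77.1 and 87.4 CPM, overlapping its control (adjusted p = 0.622), and the weight differed from 3% PEG by 0.59 ± 0.07 (adjusted p = 2.68e-07). SMAD4, the shared partner, fell in Hep3B under the weight (-0.21 ± 0.06, adjusted p = 0.012), a call lost without uncompressed replicate 1 (adjusted p = 0.0796), uncompressed replicate 2 (adjusted p = 0.0783) or weight replicate 2 (adjusted p = 0.098). SMAD2 was between 87.9 and 127 CPM and passed in no compression comparison.

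Of 5 inhibitors and corepressors, 4 rose in HepG2 under the weight, 3 rose and 1 fell in Hep3B in 3% PEG, and none passed in Hep3B under the weight. Of all genes, 17.9% rose in the first comparison, and 25.1% rose and 27.6% fell in the second. In the third, 7.28% rose and 8.88% fell. PMEPA1 is among the 4 that rose, a direction the filter had fixed, and it had no count in Hep3B. SMAD7, the inhibitory SMAD that blocks the type I receptor (chromosome 18, 48919853 to 48952052), stood at 14.1 and 15.1 CPM in uncompressed Hep3B and 28.7 and 30.2 CPM in 3% PEG (1.01 ± 0.09, adjusted p = 1.4e-10). Under the weight Hep3B was at 12.5 and 14.1 CPM, near its control (adjusted p = 0.433). In HepG2 it went from 12.8 and 11.6 CPM to 21.8 and 18.0 CPM under the weight (0.71 ± 0.10, adjusted p = 1.72e-06). The weight effect was thus lower in Hep3B, by -0.85 ± 0.15 on the log2 scale (adjusted p = 5.06e-05). On dishes it was at 16.1 and 17.1 CPM in isotonic medium and 13.5 and 10.9 CPM in 4% PEG (adjusted p = 0.382).

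SKIL, a corepressor of SMADs, rose in the same groups, by 0.49 ± 0.06 in HepG2 under the weight and 0.59 ± 0.06 in Hep3B in 3% PEG (adjusted p = 1.71e-07 and 2.49e-10). TGIF1, another corepressor, rose by 0.74 ± 0.07 and 0.41 ± 0.08 in these groups (adjusted p = 6.79e-10 and 9.54e-05). SKI itself fell in 3% PEG (-0.23 ± 0.06, adjusted p = 0.00138), a call lost without 3% PEG replicate 1 (adjusted p = 0.0733). PMEPA1, an inhibitor that retains SMADs (chromosome 20, 57648392 to 57711536), was barely present. It had 6 and 0 counts in uncompressed HepG2 and 21 and 15 counts under the weight (0.267, 0, 0.870 and 0.7 CPM), a fitted difference of 2.57 ± 0.72 (adjusted p = 0.00687) whose direction the filter had fixed. The call did not hold in DESeq2 (adjusted p = 0.752), without uncompressed replicate 2 (adjusted p = 0.144) or without weight replicate 1 (adjusted p = 0.0603). On dishes 8 counts in 4% PEG stood against 1 in isotonic medium, a ratio of 6.52 with an exact 95% interval of 0.873 to 289. The 6 Hep3B libraries had none, which allows up to 0.0186 CPM.

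The follistatin family, which holds activins in inactive complexes, had members that moved in opposite directions. FSTL3, a follistatin-like activin antagonist (chromosome 19, 676365 to 683399), stood at 11.7 and 12.1 CPM in uncompressed HepG2 and 59.0 and 53.3 CPM under the weight (2.24 ± 0.09, adjusted p = 5.77e-19). In Hep3B it went the other way, from 43.9 and 41.8 CPM to 32.5 and 36.0 CPM under the weight (-0.32 ± 0.07, adjusted p = 0.00236) and 17.4 and 18.0 CPM in 3% PEG (-1.27 ± 0.08, adjusted p = 1.43e-14). The lines differed in the weight effect by -2.56 ± 0.11 (adjusted p = 9.53e-17). On dishes FSTL3 was at 17.9 and 25.5 CPM in isotonic medium and 7.08 and 10.4 CPM in 4% PEG, a lower level that narrowly missed the threshold (-1.31 ± 0.39, adjusted p = 0.0528).

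FST, follistatin itself (chromosome 5, 53480409 to 53487134), fell in HepG2 under both treatments. It went from 393 and 350 CPM to 112 and 122 CPM in 4% PEG (-1.67 ± 0.24, adjusted p = 0.00491) and from 411 and 409 CPM to 266 and 269 CPM under the weight (-0.61 ± 0.05, adjusted p = 9.79e-11). In Hep3B it was low, at 5.41 and 5.26 CPM, and rose to 7.99 and 7.68 CPM under the weight and to 7.41 and 8.33 CPM in 3% PEG. Those rises were 0.55 ± 0.09 and 0.56 ± 0.09 (adjusted p = 4.76e-05 and 4.6e-06), and they share their control libraries. The interaction between line and weight was 1.17 ± 0.11 (adjusted p = 7.24e-10). FSTL1, a more distant relative, was between 0.490 and 3.23 CPM and passed in no compression comparison.

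**Figure D3:**
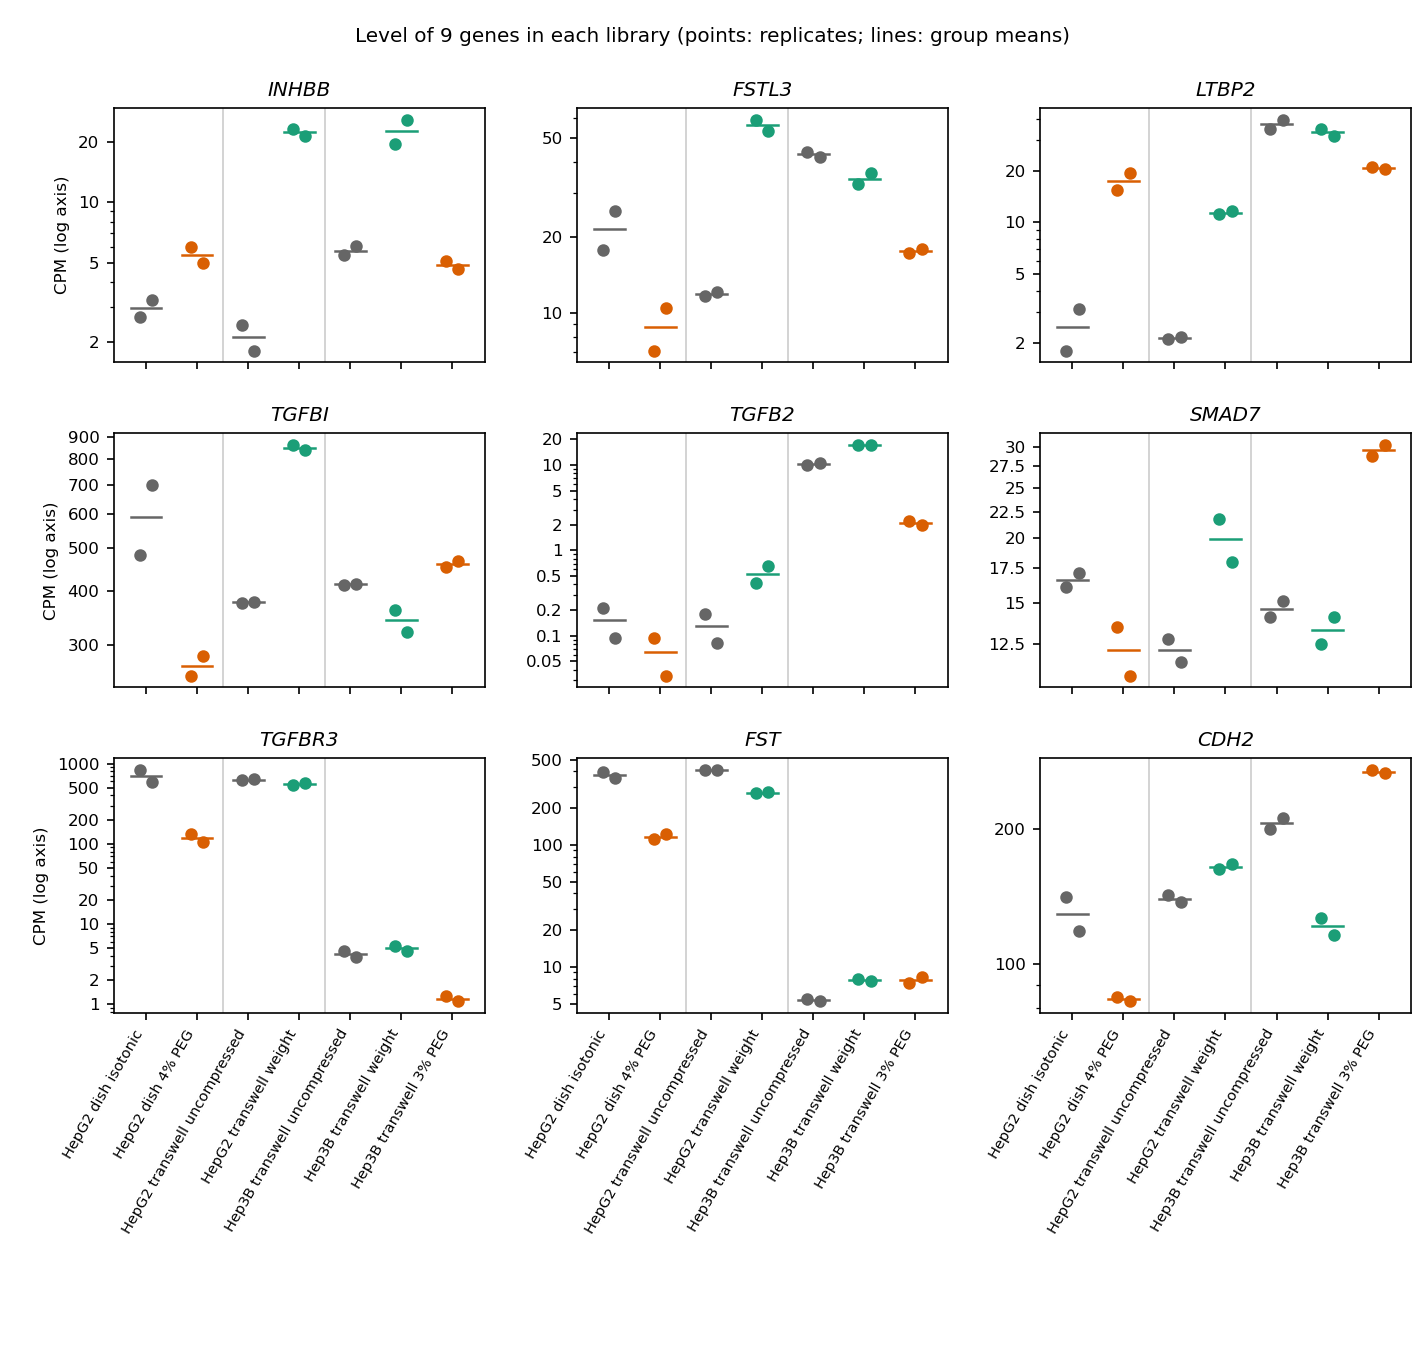
CPM of 9 genes in each library on a log axis, with points for replicates, lines for group means, green for the weight, orange for PEG and grey for controls. INHBB is high in both weighted groups, FSTL3 is higher in weighted than in uncompressed HepG2, and TGFBR3 is lower in both PEG groups.

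TGFBI, a secreted matrix protein named for its induction by TGF-beta (chromosome 5, 136028895 to 136063818), had opposite directions in the HepG2 treatments. It went from 375 and 377 CPM to 865 and 839 CPM under the weight (1.18 ± 0.06, adjusted p = 1.25e-16). On dishes it went from 484 and 697 CPM to 255 and 283 CPM in 4% PEG (-1.13 ± 0.27, adjusted p = 0.0278). The dish fall is less firm: it was lost with library totals as the only scaling (adjusted p = 0.0767), without isotonic replicate 2 (adjusted p = 0.0703), without 4% PEG replicate 1 (adjusted p = 0.116) and without 4% PEG replicate 2 (adjusted p = 0.0691). In Hep3B the changes were small, from 412 and 415 CPM to 361 and 322 CPM under the weight (-0.27 ± 0.06, adjusted p = 0.000627) and 453 and 468 CPM in 3% PEG (0.16 ± 0.06, adjusted p = 0.0198). The rise in 3% PEG was lost without uncompressed replicate 1 (adjusted p = 0.101), uncompressed replicate 2 (adjusted p = 0.0763) or 3% PEG replicate 2 (adjusted p = 0.138). TGFB1I1, a focal adhesion adaptor also known as Hic-5 (chromosome 16, 31471585 to 31477960), rose in HepG2 under the weight from 1.43 and 1.57 CPM to 6.51 and 6.81 CPM (2.15 ± 0.23, adjusted p = 5.33e-09). On dishes it stood at 1.02 and 1.83 CPM in isotonic medium and 3.17 and 7.41 CPM in 4% PEG, which missed the threshold (1.90 ± 0.58, adjusted p = 0.0577). It was nearly absent from Hep3B, at 0.0706 to 0.244 CPM.

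The EMT transcription factors did not move as a group. SNAI1, a repressor of E-cadherin (chromosome 20, 49982999 to 49988886), fell in HepG2 under the weight from 2.18 and 2.15 CPM to 1.08 and 1.03 CPM (-1.04 ± 0.29, adjusted p = 0.00419). In Hep3B it rose from 0.384 and 0.596 CPM to 1.04 and 1.15 CPM (1.15 ± 0.35, adjusted p = 0.021). The interaction was 2.19 ± 0.45 (adjusted p = 0.00047). In DESeq2 neither change passed (adjusted p = 0.0534 and 0.0831), and the Hep3B rise was lost without uncompressed replicate 1 (adjusted p = 0.213) or weight replicate 2 (adjusted p = 0.133). ZEB2, a related repressor (chromosome 2, 144364364 to 144524583), was barely detected in controls. HepG2 had 3 and 1 counts uncompressed and 13 and 15 counts under the weight (0.134 and 0.0413 against 0.539 and 0.7 CPM), a fitted difference of 2.77 ± 0.70 (adjusted p = 0.00191). That call was lost without uncompressed replicate 2 (adjusted p = 0.0625). In 4% PEG 45 counts stood against 1 in isotonic medium (0.761 and 0.714 against 0.0353 and 0 CPM), a ratio of 36.6 with an exact 95% interval of 6.25 to 1479 (adjusted p = 0.01). The filter had fixed the direction of both ZEB2 differences, so the counts are given as a description.

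ZEB1, the more abundant ZEB factor, rose in Hep3B in 3% PEG (0.96 ± 0.09, adjusted p = 2.8e-10), from 8.06 and 8.48 CPM to 16.3 and 15.9 CPM. It passed in no HepG2 comparison, at 45.5 to 85.3 CPM. SNAI2, a relative of SNAI1, rose in 3% PEG from 1.95 and 1.65 CPM to 3.14 and 2.58 CPM (0.66 ± 0.25, adjusted p = 0.0258), a call lost in DESeq2 (adjusted p = 0.124), without uncompressed replicate 2 (adjusted p = 0.152) or 3% PEG replicate 1 (adjusted p = 0.189). TWIST1, another EMT factor, had no count in any of the 14 libraries, which allows up to 0.00824 CPM.

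Of the mesenchymal proteins, fibronectin (FN1, chromosome 2, 215360440 to 215436172) was the most abundant member. It stood at 33351 and 26928 CPM in isotonic HepG2 and at 9343 and 8714 CPM in 4% PEG, a fall of -1.74 ± 0.27 (adjusted p = 0.0063). Hepatocytes are a main source of plasma fibronectin, and the summed level of 8 hepatocyte markers fell alongside, from between 103308 and 115850 CPM to between 21428 and 24242 CPM. Of these 8 markers, 4 fell and 4 did not pass, where 10.2% of all genes fell. The part of the marker fall in the FN1 result was not tested. Under the weight FN1 was at 18571 and 21945 CPM in HepG2 against 19844 and 22896 CPM uncompressed, so the groups overlapped (adjusted p = 0.732). In Hep3B it was at 1852 and 2240 CPM uncompressed, 2620 and 2630 CPM under the weight (adjusted p = 0.168) and 2245 and 2505 CPM in 3% PEG (adjusted p = 0.26).

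CDH2, N-cadherin, is made by hepatocytes as well as mesenchymal cells (chromosome 18, 27950966 to 28177446). In Hep3B it fell under the weight and rose in 3% PEG, from 200 and 212 CPM to 127 and 116 CPM (-0.76 ± 0.06, adjusted p = 1.94e-11) and to 271 and 266 CPM (0.38 ± 0.06, adjusted p = 9.04e-07). The treatments differed directly by -1.15 ± 0.06 (adjusted p = 7.05e-17). In HepG2 it rose slightly under the weight, from 143 and 137 CPM to 163 and 167 CPM (0.24 ± 0.06, adjusted p = 0.0012). VIM, the mesenchymal intermediate filament vimentin (chromosome 10, 17228259 to 17237593), was abundant in Hep3B and had 4 counts in the 8 HepG2 libraries together. It fell in Hep3B under the weight from 308 and 321 CPM to 222 and 216 CPM (-0.52 ± 0.06, adjusted p = 2.27e-07), while 3% PEG left it at 325 and 332 CPM (adjusted p = 0.415). Among the Hep3B libraries, both markers were thus lowest under the weight.

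SPARC, a matrix protein that binds collagen (chromosome 5, 151661096 to 151687165), was a HepG2 gene. It stood at 101 and 97.7 CPM uncompressed and 76.9 and 74.8 CPM under the weight (-0.39 ± 0.07, adjusted p = 3.07e-05). In Hep3B it had 5 and 2 counts uncompressed, 7 and 4 under the weight and 13 and 22 in 3% PEG (0.523 and 0.776 CPM against 0.175 and 0.0701 CPM), a rise of 2.38 ± 0.45 (adjusted p = 4.31e-05). TNC and POSTN, matrix proteins of activated stroma, had 4 and 3 counts in all 14 libraries.

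The calls on transwells depend on leaving the dish libraries out of the estimate of spread. With all 14 libraries in 1 fit, 13 of the 23 calls remained in HepG2 under the weight, and those of TGFB1, LTBP3, LTBP4, TGFBR2, TGFBR3, SKIL, PMEPA1, SNAI1, CDH2 and SPARC were lost. In Hep3B under the weight 3 of 14 remained (INHBB, FST and CDH2), and in 3% PEG 12 of 19. In 3% PEG the calls lost were LTBP1, LTBP3, SKI, SKIL, TGIF1, TGFBI and SNAI2. The dish comparison itself had 17 member calls in that fit, with its 7 among them. Of the comparisons below, 25 of the 30 line differences, 15 of the 25 differences between the weight and 3% PEG and 7 of the 16 differences between lines in the weight effect remained.

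Without compression the lines differed in 30 of 35 members, 85.7%, where 74.6% of all genes differed. INHBA and VIM passed the filter only through Hep3B, and TGFB1I1 and PMEPA1 only through HepG2. The filter had fixed the direction of these differences, so their calls are in the counts as a description. Hep3B was higher in 18 and lower in 12, with all-gene shares of 38.1% and 36.6%. By at least 1 on the log2 scale, 13 were higher and 10 lower (20.7% and 20% of all genes). Hep3B was higher in 4 of 5 ligands and 5 of 6 latency and activation genes. Those at least 10-fold higher were TGFB2 by 6.27 ± 0.28, LTBP1 by 6.21 ± 0.14 and LTBP2 by 4.13 ± 0.12 (adjusted p = 7.62e-19, 2.63e-26 and 1.18e-23), and INHBA at least 50.8-fold (187 counts against 0, at a floor of 3 counts over the group). VIM had 17985 counts against 1, a ratio of 14667 with an exact 95% interval of 2632 to 579356. Lower in Hep3B were TGFBR3 (-7.23 ± 0.09), FST (-6.26 ± 0.08), SPARC (-9.60 ± 0.16) and FN1 (-3.38 ± 0.15), with adjusted p = 2.51e-33, 2.53e-33, 6.26e-30 and 4.72e-06. Hep3B was thus the line with vimentin, and HepG2 the line with SPARC and more fibronectin. PMEPA1 (6 counts against 0) was at least 2.45-fold lower in Hep3B, with a fitted difference of 0 without uncompressed HepG2 replicate 1. Its call was also lost in DESeq2 (adjusted p = 0.424), with library totals as the only scaling (adjusted p = 0.051) and without either uncompressed Hep3B replicate (adjusted p = 0.0995 for each). SMAD2 was lower by -0.22 ± 0.06 (adjusted p = 0.00155) but 0.11 higher with library totals as the only scaling. That scaling moved the median of all genes to 0.37 in this comparison and to 0.37 in 4% PEG, and the members became 21 higher and 9 lower, and 6 up and 3 down.

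Per kilobase of exon, the FN1 level was 1234 CPM per kb in uncompressed HepG2, with FST at 138, TGFBR2 at 95.03, TGFBR3 at 72.6 and TGFBI at 48.1. In uncompressed Hep3B the order was FN1 at 118, VIM at 61.0, TGFBI at 53.0, THBS1 at 52.6 and CDH2 at 41.7 CPM per kb, with the SDs of TGFBI (0.276) and THBS1 (1.76) overlapping. The ligands were lower, with TGFB1 at 11.2 and 14.3 CPM per kb and INHBB at 0.666 and 1.79 in HepG2 and Hep3B.

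The weight acted differently in the lines for 16 of 35 members, 45.7%, against 21.9% of all genes. In 13 the effect was lower in Hep3B and in 3 higher, with all-gene shares of 9.97% and 12%. By at least 1 on the log2 scale, 7 were lower and 2 higher (2.9% and 1.97% of all genes). All 13 had risen in HepG2, and 3 of them, TGFB1, INHBB and LTBP1, rose in both lines. Over all genes, the effect was lower in Hep3B for 1802, of which 1492 had risen in HepG2 and 163 in both lines. TGFBR2, FSTL3, TGFBI and CDH2 rose in HepG2 and fell in Hep3B, and FST and SNAI1 did the reverse. Of all 18082 genes, 214 rose in HepG2 and fell in Hep3B, and 190 did the reverse. SMAD3 and THBS1 gave no difference past the threshold (-0.01 ± 0.10 and -0.11 ± 0.08). In Hep3B, the weight and 3% PEG differed directly in 25 of 35 members, 71.4% against 52.2% of all genes, with 15 higher and 10 lower under the weight (26.7% and 25.4% of all genes). By at least 1 on the log2 scale, 5 were higher and 4 lower (8.89% and 6.09%). The ligands TGFB1, TGFB2, INHBA and INHBB were all higher under the weight (0.37 ± 0.07, 3.04 ± 0.15, 1.77 ± 0.27 and 2.23 ± 0.14), and SMAD7, SKIL and TGIF1 were lower (-1.15 ± 0.10, -0.45 ± 0.06 and -0.21 ± 0.08), while SKI was higher (0.23 ± 0.06, adjusted p = 0.00179). The TGIF1 difference was lost in DESeq2 (adjusted p = 0.0885), with no filter (adjusted p = 0.0587) and with only the groups compared (adjusted p = 0.0682). It was also lost without either weight replicate (-0.23 and -0.18) and without 3% PEG replicate 1 (-0.16). The SKI difference was lost without 3% PEG replicate 1, where it was 0.16.

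Among known TGF-beta targets that are not members, those that passed under the weight mostly rose, in both lines. Of 22 such genes, 18 rose and 2 fell in HepG2 (median 1.01), and 11 rose and 2 fell in Hep3B (median 0.82). Over all genes 17.9% rose and 21.4% fell in HepG2, and 7.28% and 8.88% in Hep3B. LOXL2, a collagen crosslinker, rose by 3.38 ± 0.16 in HepG2, TGM2, a transglutaminase, by 1.52 ± 0.07 and BHLHE40, a stress-responsive repressor, by 0.82 ± 0.06 (adjusted p = 5.5e-17, 1.02e-16 and 1.24e-12). In Hep3B BHLHE40 rose by 1.63 ± 0.06, the AP-1 factor JUNB by 1.55 ± 0.10 and TGM2 by 1.12 ± 0.09 (adjusted p = 2.94e-18, 2.31e-12 and 4.94e-11). In PEG the targets split: 7 rose and 5 fell of 21 in 4% PEG (median 0.76), and 9 rose and 7 fell of 22 in 3% PEG (median 0.27). The all-gene shares were 11.6% and 10.2% in 4% PEG and 25.1% and 27.6% in 3% PEG. The cell cycle inhibitor CDKN2B rose in 4% PEG (5.04 ± 0.39) while HMGA2, a chromatin protein, and CCN2, a matricellular protein, fell (-3.24 ± 0.34 and -2.77 ± 0.30; adjusted p = 0.00121, 0.00213 and 0.00237). In 3% PEG RUNX1 and CDKN1A rose (5.07 ± 0.22 and 3.70 ± 0.17) and HMGA2 fell (-1.69 ± 0.06; adjusted p = 3.19e-18, 7.91e-18 and 8.41e-21). Many of these genes are also known to respond to other stresses. This list, like the others, was chosen with earlier results of these data known, so its counts are a description.

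The 26 other receptors, ligands and regulators of the pathway tested on transwells split under the weight. In HepG2 7 rose and 9 fell (median 0.00), where 17.9% and 21.4% of all genes did. In Hep3B 6 rose and 3 fell (median -0.02), where 7.28% and 8.88% of all genes did. BAMBI, a decoy receptor, rose in HepG2 (0.80 ± 0.08) and fell in Hep3B (-0.53 ± 0.07), an interaction of -1.34 ± 0.10 (adjusted p = 6.02e-10, 3.84e-07 and 1.35e-11). ITGAV, the integrin subunit that helps free TGF-beta, rose in HepG2 under the weight (0.67 ± 0.05) and in Hep3B in 3% PEG (0.86 ± 0.05), with adjusted p = 1.71e-11 and 2.33e-14. In 3% PEG 12 of 26 rose and 5 fell (median 0.17), where 25.1% and 27.6% of all genes did. The rises were led by INHBE, a liver activin subunit (1.35 ± 0.06, adjusted p = 4.88e-18). In 4% PEG 6 of 25 rose and 4 fell (median 0.14), where 11.6% and 10.2% of all genes did. The rises were led by DAB2, an endocytic adaptor, and FURIN, which cleaves TGF-beta precursors (4.89 ± 0.35 and 3.48 ± 0.48, adjusted p = 0.00113 and 0.00474).

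Mesenchymal genes outside the 38 and epithelial genes were counted as well. The all-gene shares to set beside them are 17.9% up and 21.4% down for the weight in HepG2, 7.28% and 8.88% for the weight in Hep3B, 25.1% and 27.6% in 3% PEG and 11.6% and 10.2% in 4% PEG. Of 13 other mesenchymal genes tested on transwells, 4 rose and 2 fell in HepG2 under the weight (median 0.11), 5 rose and 1 fell in Hep3B (median 0.33), and 3 rose and 7 fell in 3% PEG (median -0.53). In 4% PEG 4 rose and 3 fell of 9 (median 1.47). The receptor kinase AXL rose in HepG2 under the weight (2.28 ± 0.11) and in 4% PEG (3.01 ± 0.31), and the fibronectin receptor subunit ITGA5 likewise (3.10 ± 0.29 and 6.31 ± 0.65), with adjusted p = 3.53e-16, 0.00212, 4.86e-10 and 0.00212. PDGFRA, a growth factor receptor, fell in Hep3B in 3% PEG (-3.05 ± 0.12, adjusted p = 4.04e-19). Of 18 epithelial genes, 7 rose and 1 fell in HepG2 under the weight (median 0.31), 1 rose and 8 fell in Hep3B (median -0.16) and 4 rose and 7 fell in 3% PEG (median -0.10). In 4% PEG 3 of 16 rose and 1 fell (median 0.47). Keratin 19, KRT19, rose in HepG2 under the weight (1.71 ± 0.06) and in 4% PEG (3.84 ± 0.42), and fell in Hep3B under the weight (-0.56 ± 0.06) and in 3% PEG (-2.33 ± 0.06), with adjusted p = 8.83e-20, 0.00246, 9.13e-09 and 2.33e-23. KRT19, AXL and ITGA5 were named for their small p and do not stand for their lists. In HepG2 under the weight, 10 of 18 epithelial and 7 of 13 other mesenchymal genes did not pass. In 4% PEG 12 of 16 and 2 of 9 did not pass.

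**Figure D4:**
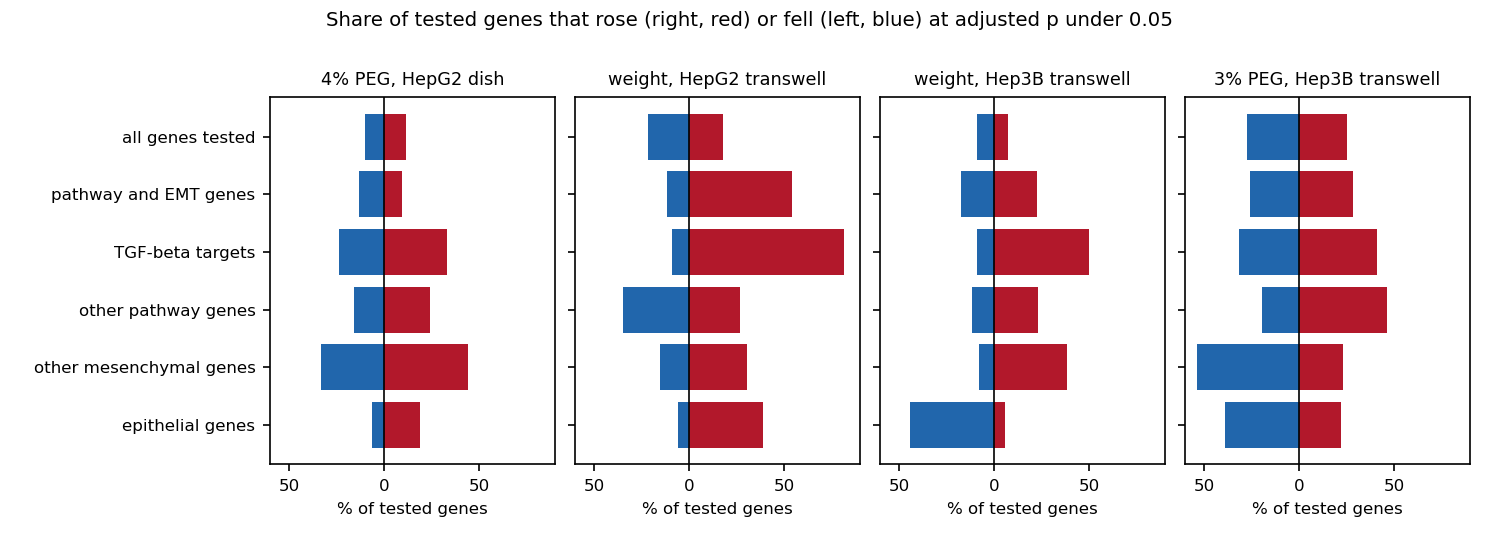
Percentage of tested genes that rose (red, right) or fell (blue, left) in each compression comparison, for all genes, the 38 described here and 4 related lists. The bar of TGF-beta targets under the weight is long to the right in HepG2 (18 of 22) and shorter in Hep3B (11 of 22). The lists were chosen with earlier results of these data known.

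Markers of other cell types and of hepatocytes were summed in each library. The summed level of 10 fibroblast and stellate cell markers was 56.1 to 61.4 CPM in uncompressed HepG2 and 59.3 to 61.9 CPM under the weight, with COL1A2, DCN and THY1 at 0. In Hep3B it was 52.3 to 55.4 CPM uncompressed, with COL3A1 and ACTA2 at 0, 52.0 to 58.3 CPM under the weight, with ACTA2 at 0, and 34.1 to 34.2 CPM in 3% PEG, where ACTA2 and THY1 were at 0. On dishes it was 32.0 to 44.6 CPM in isotonic medium, with COL1A2 and DCN at 0, and 27.4 to 36.8 CPM in 4% PEG, with COL1A2 and THY1 at 0. In HepG2 under the weight, 5 endothelial markers went from between 7.04 and 7.07 CPM, with KDR at 0, to between 11.85 and 11.86 CPM. Of these, 3 of the 3 tested rose (median 0.84), where 17.9% of all genes rose. On dishes the endothelial markers summed to 11.9 to 14.9 CPM and in Hep3B to 0.494 to 1.69 CPM. The 5 leukocyte markers summed to 4.66 to 7.79 CPM in isotonic medium and 10.6 to 16.1 CPM in 4% PEG. There 1 of the 3 tested rose, as did 11.6% of all genes. The leukocyte markers summed to 4.37 to 6.07 CPM in HepG2 on transwells and to 1.67 to 3.28 CPM in Hep3B. PTPRC was at 0 in every HepG2 group and CD3E at 0 in every Hep3B group. The 8 hepatocyte markers summed to 84138 to 91884 CPM in uncompressed HepG2 and 64397 to 72146 CPM under the weight. In Hep3B they summed to 35898 to 38560 CPM uncompressed, 35675 to 36565 CPM under the weight and 24308 to 24449 CPM in 3% PEG. Of the 8, 1 rose and 5 fell in HepG2 under the weight (17.9% and 21.4% of all genes). In Hep3B 0 rose and 3 fell under the weight (7.28% and 8.88%), and 2 rose and 3 fell in 3% PEG (25.1% and 27.6%). The part of these shifts in the results above was not tested.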

How the data were processed

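The authors deposited 1 table of counts per gene for 14 RNA-seq libraries. Per the labels, RNA came from an RNeasy kit and was read as 100 bp pairs on Illumina HiSeq or NovaSeq. GRCh38/hg38, STAR and DESeq2 appear in the submitters' processing notes, without roles. The counting tool, its use of strand and the annotation release are not stated in those notes or labels. The columns named control with Hep3b were taken as uncompressed Hep3B, the Hep3B group with no columns of its own name. Of 56479 entries, 15420 carry no gene name. They were kept in the library sizes, were tested where they passed the filter, and held 0.229% to 0.308% of counts.

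Counts were tested with edgeR 4.0.16 (R 4.3.3), using its quasi-likelihood test with robust fitting, TMM factors over all libraries and filterByExpr with a minimum count of 10. Dish (4 libraries) and transwell (10 libraries) were fitted apart, with p-values adjusted by Benjamini-Hochberg over all genes tested. The script was tested on simulated data with 200 changed genes, none among the least abundant. The dish fit recovered 9% of 2-fold and 96% of 8-fold changes, with 5 false calls. The transwell fit recovered 77% of 1.5-fold and 88% of 2-fold changes, with 9 false calls. Alternatives were DESeq2 1.42.0, RLE factors, library totals, no filter, a filter of 5 CPM in 2 libraries, all 14 libraries in 1 fit, only the groups compared, a replicate block and leaving out each library. Exact 95% intervals and the floor of 3 counts cover counting error only. Coordinates and exon lengths are from GENCODE 29, promoters from RefSeq. The authors' build was not checked against them by position.

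The members, the lists, the rule for named genes and the separate fits were chosen with earlier results of these data known. Values in every library are given for members that passed with a log2 change of at least 1 in a compression comparison without overlap, and for those at least 10-fold apart between the lines. Others were added for their role. From each list outside the members, up to 3 genes with the smallest p were taken per comparison. Of 155 symbols in all lists, 154 were in the table.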

Additional observations from a re-analysis of the deposited data

Results flagged for a closer look

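These are the 16 members whose weight effect differed between the lines by the edgeR interaction test (adjusted p under 0.05), as the effect in Hep3B minus that in HepG2 on the log2 scale. For binding proteins and ligands it was -2.57 for LTBP2, -1.9 for LTBP1, -0.79 for LTBP3, -1.41 for INHBB and -0.44 for TGFB1. FSTL3 gave -2.56, TGFB1I1 -2.27, TGFBI -1.46 and CDH2 -1. The inhibitors SMAD7, TGIF1 and SKIL gave -0.85, -0.54 and -0.34, and the receptor TGFBR2 gave -0.58. The effect was higher in Hep3B for SNAI1 at 2.19, FST at 1.17 and the coreceptor TGFBR3 at 0.42.

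The TGFBR3 difference was lost in DESeq2 (adjusted p = 0.0651), without uncompressed HepG2 replicate 2 (0.0518), without uncompressed Hep3B replicate 2 (0.151) and without Hep3B weight replicate 1 (0.228). That of SKIL was lost without uncompressed HepG2 replicate 2 (adjusted p = 0.0777), and that of TGFB1I1 without uncompressed Hep3B replicate 1 (0.227) or Hep3B weight replicate 1 (0.0597). With groups of 2, no library could be checked as standing apart from its group.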

How the results depend on the processing

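With 2 libraries a group, calls rest on the spread shared over genes. Of 1646 values of 134 member calls under the alternatives, 1526 stayed on their side of the threshold in the same direction, 118 lost the call, 1 changed sign (SMAD2) and 1 went to 0 (PMEPA1), and 77 calls held in all. With all 14 libraries in 1 fit, member calls went from 7 to 17 in 4% PEG, 23 to 13 for the weight in HepG2, 14 to 3 for the weight in Hep3B, 19 to 12 in 3% PEG, 25 to 15 for the weight against 3% PEG and 16 to 7 for the difference between lines. Calls over all genes went from 3758 to 9015, 7098 to 1854, 2922 to 203, 9532 to 4313, 9430 to 4434 and 3965 to 367 in the same order. The fit has 1 spread per gene for both surfaces, and the dish replicates were the more variable. In 4% PEG the members called were 12 with no filter and 11 in DESeq2, and all genes called were 2417 with the 5 CPM filter. DESeq2 called 1929 genes for the weight in Hep3B. For these changes the cause was not tested. With library totals as the only scaling, SMAD2 was 0.1107 higher in Hep3B than in HepG2. The split of all genes became 3193 up and 1101 down in 4% PEG, 9067 and 4819 between the lines and 5364 and 4194 in 3% PEG, with members at 6 and 3, 21 and 9, and 14 and 8.

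Leaving out 1 library gave 6 to 12 member calls in 4% PEG (12 without isotonic replicate 2), 19 to 24 for the weight in HepG2, 12 to 14 for the weight in Hep3B, 16 to 18 in 3% PEG, 27 to 29 between lines, 22 to 24 for the weight against 3% PEG and 14 to 16 for the difference between lines. All genes called for the weight in Hep3B ranged from 1557 (without weight replicate 2) to 3206, with 1812 and 1613 without uncompressed replicates 1 and 2. PMEPA1 between the lines was at 0 without uncompressed HepG2 replicate 1 and -5.796 without replicate 2, both fitted values on 6 counts or fewer.

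The labels number replicates but do not say that a number is shared between groups. Replicate differences correlated at 0.764 between the dish groups, a single pair of groups, and at -0.112 to 0.126 between transwell groups of 1 line. With a replicate block the members called were 22 in 4% PEG (11153 of all genes), 24 and 17 for the weight in HepG2 and Hep3B, 20 in 3% PEG, 30 between lines, 26 for the weight against 3% PEG and 18 for the difference between lines.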
